A study of Mus musculus with 4 samples.

Results

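The genes described here are 10 markers of Kupffer cells, the resident macrophages of the liver, and of macrophages at large. They were measured in livers of mice with and without a conditional liver knockout of NIPP1. They are Clec4f, Emr1 (now Adgre1), Marco, Cd5l, Vsig4, Timd4, Cd68, Csf1r, C1qa and C1qb, chosen by gene name in the scanner files, with every probe that was not a control. All 10 were on the array, with 14 probes of 39429, and all 10 were among the 16249 genes tested. The liver RNA came from 8 untreated male mice of a mixed strain, 2 months old, of which 4 were controls and 4 carried a conditional liver knockout of NIPP1, the nuclear phosphatase 1 subunit encoded by Ppp1r8. Each of 4 two-colour arrays carried 1 knockout and 1 control mouse. The knockout RNA was labelled with Cy3 on replicates 1 and 2 and with Cy5 on replicates 3 and 4. No mouse was measured more than once, and all values come from whole liver RNA. Which Cre line was used, which exons it deletes and what alleles the controls carry was not stated in the labels.

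Kupffer cells line the liver sinusoids, where they clear particles, microbes, lipoproteins and spent red cells from portal blood. They are seeded before birth and maintained by signalling through the colony stimulating factor receptor, under lineage factors such as PU.1 and MAF family members. When resident cells are lost, blood monocytes enter the liver and take on the resident gene programme over time, and Timd4 is among the last resident markers that such cells acquire. In whole liver RNA, fewer macrophages and less marker RNA per macrophage cannot be told apart.

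No marker passed the test for a difference between knockout and control livers. In limma's fit with Benjamini-Hochberg adjustment over all genes, 0 of the 10 had an adjusted p under 0.05, and the percentage over all genes was also 0. The smallest adjusted p among them was 0.198, for Cd68. Without adjustment 1 of the 10, Cd68, was under 0.05, against 22.7% of all genes tested, so a single such marker is no more than the background share. At an adjusted p under 0.1 there was again no marker, against 5.60% of all genes. The fitted means ran from -0.21 for Cd5l to 0.15 for Cd68 on the log2 scale, 2 lay above 0 and 8 below, and their median was -0.06 against -0.0007 for all genes. The 95% intervals of the 10 reached from 0.672-fold at the lowest, for Cd5l, to 1.265-fold at the highest, for C1qb. Each interval is for 1 gene in this fit alone, so they are not a joint bound on the size of a shift. In the separate-channel limma fit, where both dyes enter as samples, again 0 of the 10 had an adjusted p under 0.05, against 16.9% of all genes.

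The probes that carried the lectin and complement markers are shown because these 3 genes followed the same pattern over the arrays. They are 60-base oligonucleotides, printed 5′ to 3′ as in the array files, with positions on the mouse build mm9. The Clec4f probe lies on the minus strand at chr6:83595281-83595339, the C1qa probe on the minus strand at chr4:136452409-136452468 and the C1qb probe on the minus strand at chr4:136436578-136436637. Exon and UTR annotation on that build was not used here.
Clec4f probe: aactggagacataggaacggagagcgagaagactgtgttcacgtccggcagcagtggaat
C1qa probe: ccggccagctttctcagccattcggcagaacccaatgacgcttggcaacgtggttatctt
C1qb probe: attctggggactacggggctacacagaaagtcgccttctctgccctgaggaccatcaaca

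Clec4f, a galactose-binding lectin found in mice on Kupffer cells, had log2 ratios of knockout over control of 0.53, -0.08, -0.37 and -0.18 on replicates 1 to 4. Only replicate 1 lay above 0, and the mean was -0.03 ± 0.39 (SD, n = 4; adjusted p 0.909 by limma). The spread of the 4 pairs was thus many times the mean. The log2 level of a mouse is a loess-normalised intensity, also quantile-normalised between arrays on the mean of both dyes. Single levels are comparable only within a gene, and across dyes they still hold the gene's dye effect. By mouse, this level was 12.37, 11.85, 11.45 and 11.76 in the knockout mice of replicates 1 to 4. It was 11.85, 11.93, 11.82 and 11.95 in the control mice. The 4 controls lay close together, and the knockout mice held both the highest and the lowest level.

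C1qa and C1qb encode chains of C1q, the recognition subunit of the classical complement pathway, which macrophages make. C1qa gave 0.46, -0.16, -0.47 and -0.17, with a mean of -0.08 ± 0.39 (SD, n = 4; limma adjusted p 0.731). C1qb gave 0.44, -0.20, -0.26 and -0.0001, with a mean of -0.0061 ± 0.32 (SD, n = 4; limma adjusted p 0.984). Both were above 0 on replicate 1 only. The difference between the 2 chains on the same array was 0.02, 0.04, -0.21 and -0.17. On replicates 1, 2 and 3 it was smaller in size than either ratio. C1qc, the gene of the remaining chain, gave 0.14, -0.34, -0.15 and -0.0051, again above 0 on replicate 1 alone.

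Cd5l, a secreted macrophage protein that binds lipids and IgM, had the lowest mean of the 10. Its ratios were 0.36, -0.35, -0.51 and -0.35, with a mean of -0.21 ± 0.39 (SD, n = 4). The fit gave a standard error of 0.13, a 95% interval from -0.57 to 0.15 and an adjusted p of 0.405 by limma. It was below 0 on 3 of the 4 arrays, and with 1 array left out at a time its mean ran from -0.39 (without replicate 1, adjusted p 0.163) to -0.04 (without replicate 2, adjusted p 0.833), both by limma. Levels in the knockout mice were 13.04, 12.20, 11.86 and 11.99, and in the control mice 12.68, 12.55, 12.37 and 12.34. The knockout mouse of replicate 1 was the highest of all 8, and the other 3 knockout mice lay below the 4 controls.

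Vsig4, the complement receptor that captures opsonised particles from blood, gave 0.17, -0.29, -0.32 and 0.01. The pairs were divided evenly around 0, and the mean was -0.11 ± 0.24 (SD, n = 4; limma adjusted p 0.597). Timd4, a phosphatidylserine receptor of long-resident Kupffer cells, gave 0.12, 0.0007, 0.02 and 0.21. Its mean was 0.09 ± 0.10 (SD, n = 4), with a 95% interval from -0.07 to 0.25 and an adjusted p of 0.437 by limma. All 4 ratios were above 0, but the lower 2 were within 0.02 of it, and the ratio on replicate 3 was -0.07 when taken from signals processed by the scanner software. Levels of Timd4 were 8.14, 7.79, 7.78 and 7.82 in the knockout mice and 8.02, 7.79, 7.76 and 7.61 in the controls, which overlap.

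**Figure D1:**
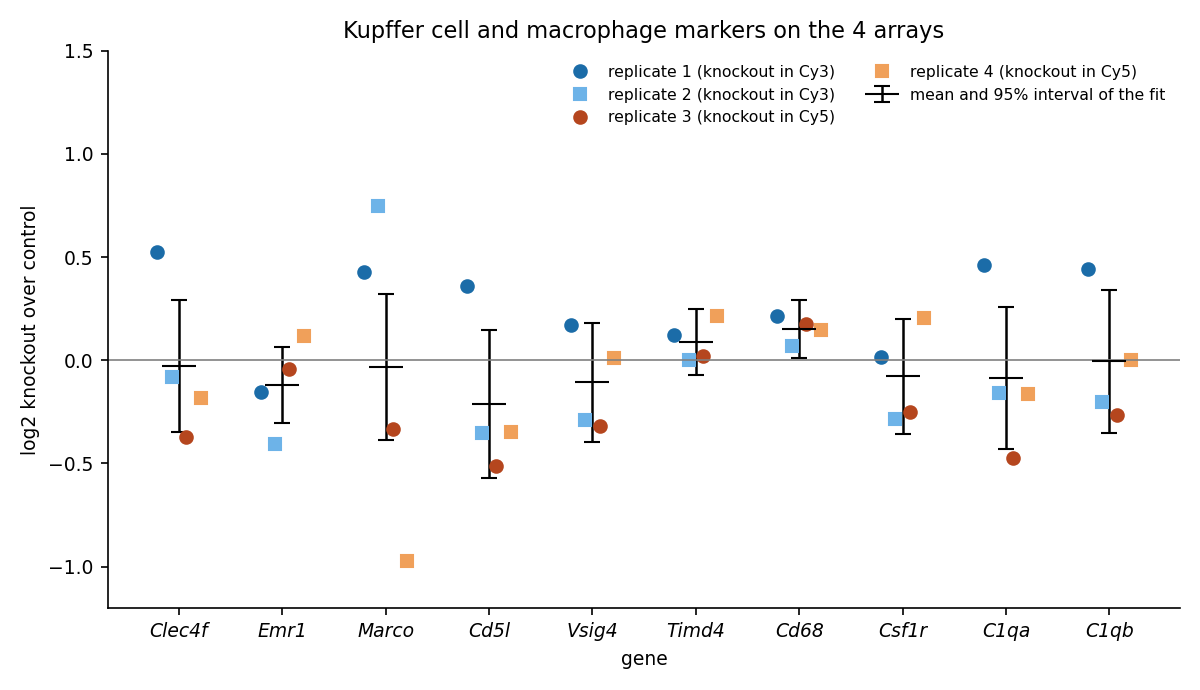
Log2 ratio of knockout over control for each of the 10 markers, with 1 point per array coloured and shaped by replicate and the mean and 95% interval of the limma fit in black. Every interval but that of Cd68 crosses 0, and the point of replicate 1 is the highest for Clec4f, Cd5l, Vsig4, Cd68, C1qa and C1qb.

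Marco, a class A scavenger receptor that binds bacteria and particles, varied more than any other marker. Its ratios were 0.43, 0.75, -0.33 and -0.97, with a mean of -0.03 ± 0.77 (SD, n = 4; limma adjusted p 0.9). Only 2.6% of all genes had a larger SD over the 4 arrays. The ratios were above 0 where the knockout RNA carried Cy3 and below 0 where it carried Cy5, the only one of the 10 with that division, which 24.3% of all genes showed. The fitted dye term, Cy5 over Cy3, was -0.62, with an unadjusted p of 0.0077 and an adjusted p of 0.137 by limma. With 2 different mice of each genotype per dye, a dye effect and a difference between mice cannot be told apart for this gene. Levels were 10.02, 9.15, 8.10 and 8.38 in the knockout mice and 9.60, 8.41, 8.44 and 9.36 in the controls. The separate-channel fit widened the 95% interval of Marco from -0.39 to 0.32 into -0.66 to 0.59.

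Cd68, a lysosomal membrane glycoprotein of phagocytes, was the steadiest. Its brighter probe gave 0.21, 0.07, 0.18 and 0.15, with a mean of 0.15 ± 0.06 (SD, n = 4), a standard error of 0.05 and a 95% interval from 0.01 to 0.29. That is 1.11-fold, with an interval from 1.008 to 1.224. The unadjusted p was 0.039 and the adjusted p 0.198 by limma, and in the separate-channel fit the adjusted p was 0.257. All 4 pairs were above 0, as for Timd4, so 2 of the 10 markers had 1 sign on every array against 24.2% of all genes. Levels in the knockout mice were 9.34, 8.92, 8.88 and 9.13, and in the controls 9.13, 8.85, 8.70 and 8.98, so the groups overlapped although each knockout mouse was above the control on its own array. The second Cd68 probe gave 0.28, 0.27, 0.14 and 0.0056, also above 0 on each array. It was well above background in the 4 knockout mice and in 2 of the 4 controls, and in the processed signals, which have no offset, it gave 0.60, 1.54, 0.28 and 0.27.

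Emr1 encodes F4/80, the adhesion G protein-coupled receptor by which mouse macrophages are commonly sorted. Its brighter probe gave -0.16, -0.40, -0.04 and 0.12, with a mean of -0.12 ± 0.22 (SD, n = 4; limma adjusted p 0.358). Its other probe gave 0.24, -0.18, -0.30 and -0.09. The 2 probes differed in sign on replicates 1 and 4, so the array pattern of Emr1 depends on the probe, while their means, -0.12 and -0.08, were close. Both lie on the plus strand of chromosome 17 on mm9, at chr17:57620350-57620409 and, for the brighter, chr17:57622868-57622927.

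Csf1r, the receptor for CSF1 and IL34 on which tissue macrophages depend, was read by 3 probes. The brightest gave 0.02, -0.29, -0.25 and 0.20, with a mean of -0.08 ± 0.23 (SD, n = 4; limma adjusted p 0.691). The others gave 0.09, -0.10, -0.15 and 0.12, and 0.25, -0.13, -0.13 and -0.23. The 3 probes had the same sign on replicates 1, 2 and 3 and differed on replicate 4. Their means, -0.08, -0.01 and -0.06, all lay near 0.

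Several markers shared a profile over the arrays. On replicate 1, 9 of the 10 lay above 0, on replicate 2 there were 3, on replicate 3 there were 2 and on replicate 4 there were 5. The shares over all genes were 47.8%, 47.6%, 53.3% and 54.6%. The markers' median was 0.29, -0.18, -0.29 and 0.0050 on the 4 arrays, while the median of all genes stayed between -0.01 and 0.02. Clec4f, C1qa, C1qb, Marco and Cd5l exceeded the 90th percentile of all genes on replicate 1, which was 0.35. Emr1 on its brighter probe was the marker below 0 there. As markers of 1 cell population in the same RNA these genes are not independent readings.

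**Figure D2:**
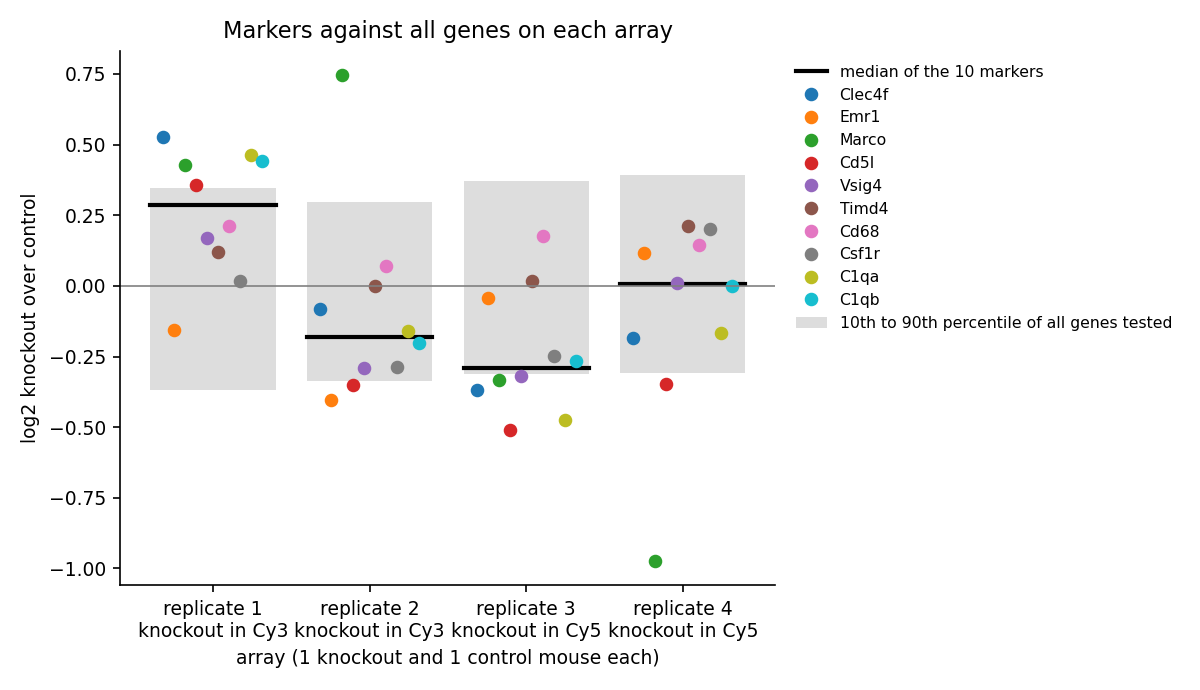
Log2 ratio of knockout over control of the 10 markers on each array, with the grey bar spanning the 10th to the 90th percentile of all genes tested and the black line at the markers' median. The median is at 0.29 on replicate 1 and at -0.29 on replicate 3, while the grey bars stay centred near 0.

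By mouse, 1 animal stood highest. The knockout mouse of replicate 1 had the highest level of all 8 mice for 9 of the 10 markers. For Emr1, on its brighter probe, this mouse was second to the control on its own array, 9.01 against 9.16. The share of all genes with their highest level in this mouse was not computed. Summed over the 10 markers, the linear level in the knockout mice was 31394, 19996, 16209 and 20277 on replicates 1 to 4. In the controls it was 26331, 23423, 20489 and 21298. The control on replicate 1 was also the highest of the controls. Knockout mice thus held both the highest and the lowest sum, and the groups overlapped. These ranks cross the dyes, whose effect on each gene was not removed, and bright genes weigh most in a sum.

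Within a dye the markers did not divide the genotypes in the same way. Among the 4 mice labelled with Cy5, both knockout mice lay below both controls for 8 of the 10 markers, against 24.7% of all genes. Timd4 and Cd68 were the exceptions. Among the 4 mice labelled with Cy3, 9 of the 10 overlapped between genotypes, and Timd4 was higher in both knockout mice. Over all genes, 53.0% did not overlap in Cy5 and 47.5% did not overlap in Cy3. The Cy5 comparison sets knockout mice of replicates 3 and 4 against controls of replicates 1 and 2, so arrays and genotypes cannot be told apart within it.

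**Figure D3:**
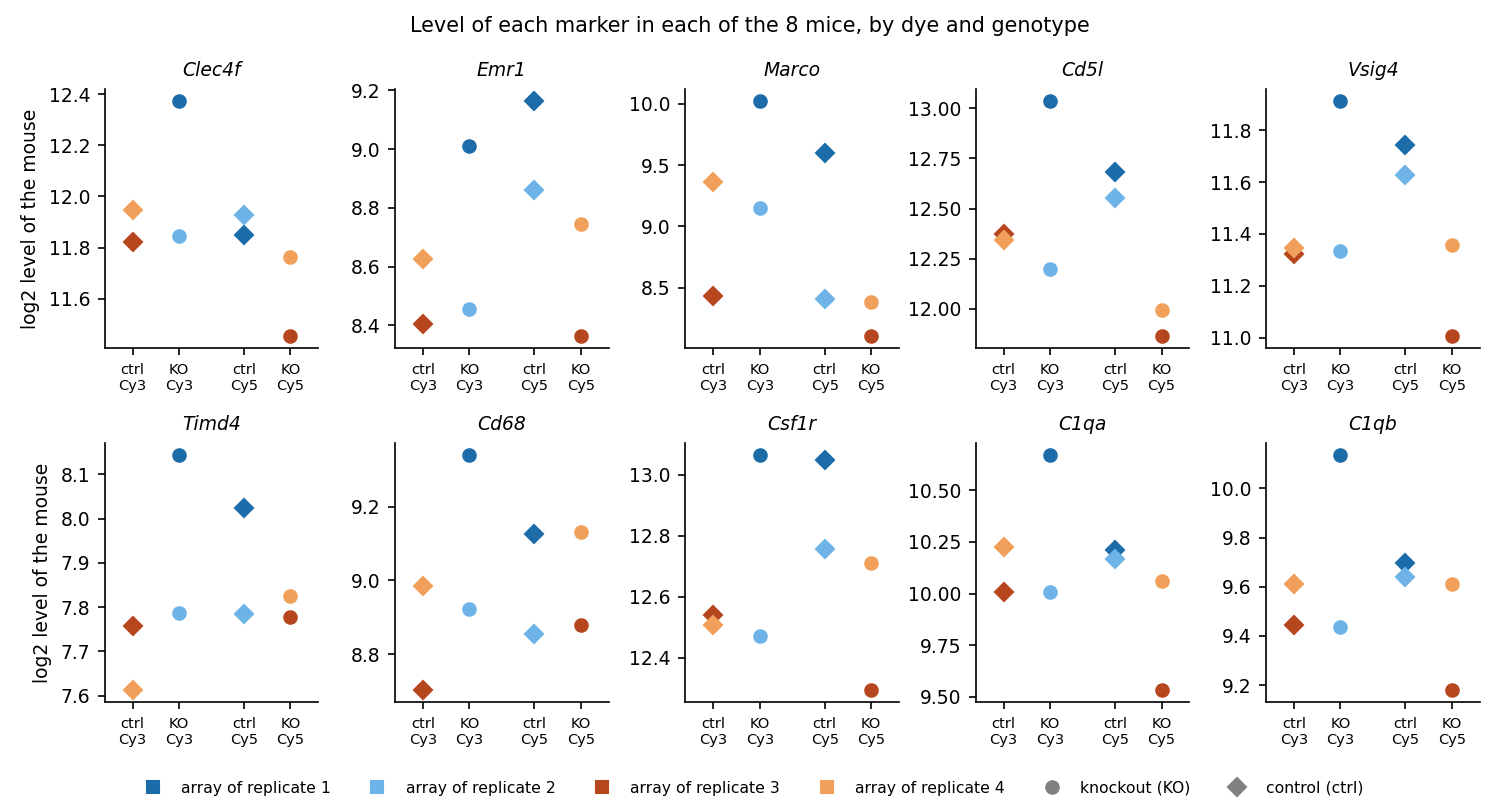
Normalised log2 level of each marker in each of the 8 mice, with circles for knockout and diamonds for control, grouped by dye and coloured by array; scales differ between panels. The knockout mouse of replicate 1 is the highest point in every panel but that of Emr1, and in Cy5 the knockout points lie below the control points except for Timd4 and Cd68.

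Pancreatic acinar transcripts differed between the same mice. Of 19 acinar genes on the list 16 were tested, and their median ratio was 4.21 on replicate 1, -2.62 on replicate 2, -0.12 on replicate 3 and -1.04 on replicate 4. Their summed level was 67842 in the knockout mouse of replicate 1 and 17183 in the control of replicate 2, and from 4849 to 7198 in the other 6 mice. Their part in the markers' levels on those arrays was not tested. Without replicates 1 and 2 and with no dye term, a setting chosen after seeing the data, the median of the 10 markers was -0.14. Of them 3 lay above 0 and 7 below, and none had an adjusted p under 0.05 by limma. The knockout RNA carried Cy5 on both arrays left, so genotype and dye cannot be told apart in that setting.

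The labels were checked on the targeted gene and the tissue. Ppp1r8 was lower in the knockout mouse on all 4 arrays, by ratios of -0.60, -0.74, -0.74 and -0.63 (mean -0.68 ± 0.07, SD, n = 4; limma adjusted p 0.0586), and its second probe gave -0.66, -0.59, -0.59 and -0.75. In the processed signals, which have no offset, the means of the 2 probes were -1.33 and -1.22. Whether these probes lie within the deleted part is not known. Of 12 hepatocyte genes 11 were tested, and all 10 Kupffer cell and macrophage markers were well above background in 8 of 8 mice on the probe that stands for the gene. Over all 16249 genes the fit called 0 at an adjusted p of 0.05, the smallest being 0.0534, while 910 were under 0.1 and 3694 had an unadjusted p under 0.05. No spot was saturated, and 52.7% to 56.3% of spots were well above background over the arrays and dyes.

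Other genes of resident Kupffer cells were read from a list of 17, of which 16 were tested, 7 with a mean above 0 and 9 below, with a median of -0.03. Their medians on replicates 1 to 4 were 0.16, -0.10, -0.0084 and 0.04, nearer to 0 on replicate 3 than the markers' median. Their summed level was 52185, 46623, 44896 and 48721 in the knockout mice and 46820, 41634, 41967 and 43345 in the controls. It was higher in the knockout mouse of each array, although the groups overlapped. The markers' sum was lower in the knockout mouse on 3 of the 4 arrays. Bright genes weigh most in such sums, and 9 of the 16 genes here had a mean below 0. None had an adjusted p under 0.05. Unadjusted, 4 were under 0.05 with a mean above 0 and 1 with a mean below, 5 of 16 against 22.7% of all genes. The smallest adjusted p, 0.0944 by limma, belonged to Nr1h3, which encodes the liver X receptor alpha and is expressed in hepatocytes as well. Nr1h3 gave 0.26, 0.33, 0.26 and 0.19 (mean 0.26 ± 0.06, SD, n = 4). Folr2, a folate receptor of resident macrophages, gave 0.62, -0.34, -0.13 and -0.0059, above 0 on replicate 1 alone like Clec4f. Slc40a1, the iron exporter ferroportin, went the other way on that array, with -0.39, 0.13, 0.34 and 0.41. Cd163, the haemoglobin scavenger receptor, was not well above background and was not tested.

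Among 26 other genes of macrophages at large, 22 were tested, with 6 above 0, 16 below and a median of -0.10. Lyz2, the lysozyme of myeloid cells, gave -0.07, -0.37, -0.26 and 0.25, and Mrc1, the mannose receptor, gave -0.38, -0.09, -0.20 and 0.08. Msr1, a scavenger receptor, gave 0.09, -0.44, -0.16 and 0.04. No gene of this list had an unadjusted p under 0.05. Ptprc, the leukocyte antigen CD45, which is not on the list, gave 0.09, -0.19, -0.07 and -0.0030. On the list of other scavenger and clearance receptors, 17 of 19 were tested, with 5 above 0, 12 below, a median of -0.11 and none under an adjusted p of 0.05, with 6 under 0.05 unadjusted, 4 above 0 and 2 below, against 22.7% of all genes. Cd36, a fatty acid and oxidised lipid receptor that other liver cells also express, was on this list. It is named after its values were seen, 1.57, 2.57, 2.19 and 1.71 (mean 2.01 ± 0.46, SD, n = 4; limma adjusted p 0.0586). So is Havcr1, the other gene of this list under an adjusted p of 0.1. Havcr1 gave 0.30, 0.20, 0.37 and 0.26 (mean 0.28 ± 0.07, SD, n = 4; limma adjusted p 0.0904).

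The ligands of the receptor and the lineage factors were also without a call. Csf1 gave 0.04, -0.54, 0.13 and 0.23, and Il34, the second ligand of Csf1r, gave -0.08, 0.04, -0.19 and -0.21. Of the 16 genes on this list 12 were tested, with 3 above 0, 9 below and a median of -0.07, and Spi1, the gene of PU.1, was not well above background. Among the other 7 genes of the C1 complex and its partners, all tested, 3 were above 0 and 4 below, with a median of -0.05.

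Genes of recruited monocytes and of lipid-associated macrophages had 12 of 18 members tested, 10 above 0 and 2 below, with a median of 0.05 and none under an adjusted p of 0.05, with 5 of the 12 under 0.05 unadjusted, 4 above 0 and 1 below, against 22.7% of all genes. Their summed level was 9610 to 14951 in the knockout mice and 7230 to 9468 in the controls, with no overlap. The part of single genes in it was not tested, and in whole liver RNA the sum is not a measure of these cells alone. Ly6c1, on this list and named after its values were seen, gave 1.27, 0.41, 1.28 and 0.67 (mean 0.91 ± 0.44, SD, n = 4; limma adjusted p 0.107). Which liver cells the Ly6c1 RNA came from was not measured. The symbol of Ly6c2, also on the list, was not found on the array. The 3 genes with an adjusted p under 0.1 are named after their values were seen, and they differ in sign. Cd63, a tetraspanin of lysosomes in many cell types, gave 1.58, 1.89, 1.06 and 0.98 (mean 1.38 ± 0.43, SD, n = 4; limma adjusted p 0.0534). Spp1, which encodes osteopontin and is also on the biliary list, had a mean of 0.37 ± 0.16 (SD, n = 4; limma adjusted p 0.0749). Cx3cr1, the fractalkine receptor of monocytes, gave -0.87, -1.26, -0.14 and 0.0086 (mean -0.57 ± 0.60, SD, n = 4; limma adjusted p 0.0737). Its mean was -1.07 with the knockout in Cy3 and -0.07 with it in Cy5. The dye term of Cx3cr1 was 0.50, with an unadjusted p of 0.00348 and an adjusted p of 0.129 by limma. Trem2, a lipid receptor of such macrophages, gave 0.14, -0.22, 0.07 and 0.07, and Ccr2, the monocyte chemokine receptor, was not well above background. Cytokine and activation genes had 13 of 24 tested, 6 above 0 and 7 below, with a median of -0.02 and none under an adjusted p of 0.05, with 3 of 13 under 0.05 unadjusted, near the 22.7% of all genes, and Tnf was not well above background. Their summed level was 52769 to 55335 in the knockout mice and 46292 to 50747 in the controls, again without overlap. In whole liver RNA this sum is not a measure of macrophages alone. How much each gene weighs in this sum was not tested, and bright genes weigh most. Arg1, named after its values were seen, was the only gene of this list above 0 on all 4 arrays. It gave 0.1550, 0.0959, 0.2496 and 0.2526 (mean 0.19 ± 0.08, SD, n = 4; limma adjusted p 0.126). Which liver cells this RNA came from was not measured. Il1b, which encodes interleukin 1 beta, gave -1.19, -1.57, -0.08 and 0.52, with a mean of -0.58 ± 0.97 (SD, n = 4; limma adjusted p 0.114). Its 2 arrays with the knockout in Cy3 were far below the others. Ccl24, the only gene of this list under an adjusted p of 0.1, is named after its values were seen. It gave -1.05, -0.91, 0.16 and 0.19 (mean -0.40 ± 0.67, SD, n = 4; limma adjusted p 0.0646), below 0 only with the knockout in Cy3.

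Markers of other cell types were read on the same arrays. Of 20 sinusoidal endothelial markers, all tested, 18 had a mean below 0, against 8178 of all 16249 genes, with a median of -0.13. Their summed level was 33198 to 36527 in the knockout mice and 37919 to 40218 in the controls, with no overlap. Stab2, a scavenger receptor of these cells, gave -0.42, -0.12, -0.36 and 0.19. None of the 20 had an adjusted p under 0.05, and 1 was under 0.05 unadjusted, against 22.7% of all genes. The T and NK cell list had 6 of 18 tested, all below 0 with a median of -0.10, and Cd3e, a chain of the T cell receptor complex, gave -0.10, -0.11, -0.23 and -0.08. The B and plasma cell list had 5 of 12 tested and a median of -0.07, and Cd79a, of the B cell receptor, gave -0.06, -0.12, -0.05 and -0.03. The neutrophil list had 6 of 13 tested and a median of 0.12, and S100a8, a calcium-binding protein of neutrophils and monocytes, gave 0.77, -1.17, -0.03 and 0.27. Dendritic cell genes had 9 of 15 tested and a median of 0.04, stellate cell genes 14 of 15 and -0.04, hepatocyte genes a median of -0.05, and red cell genes 8 of 10 and -0.14. Biliary cell markers had the highest median, 0.21 with 9 of 10 tested genes above 0, 5 under 0.05 unadjusted and 4 under an adjusted p of 0.1 by limma. In the processed signals that median was 0.44. Their summed level was 1916 to 2210 in the knockout mice and 1440 to 1817 in the controls, the last of the 4 lists whose sums did not overlap between genotypes. Bright genes weigh most in these sums, and the share of all genes without overlap over both dyes was not computed. The part of these shifts in the markers' values was not tested.

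**Figure D4:**
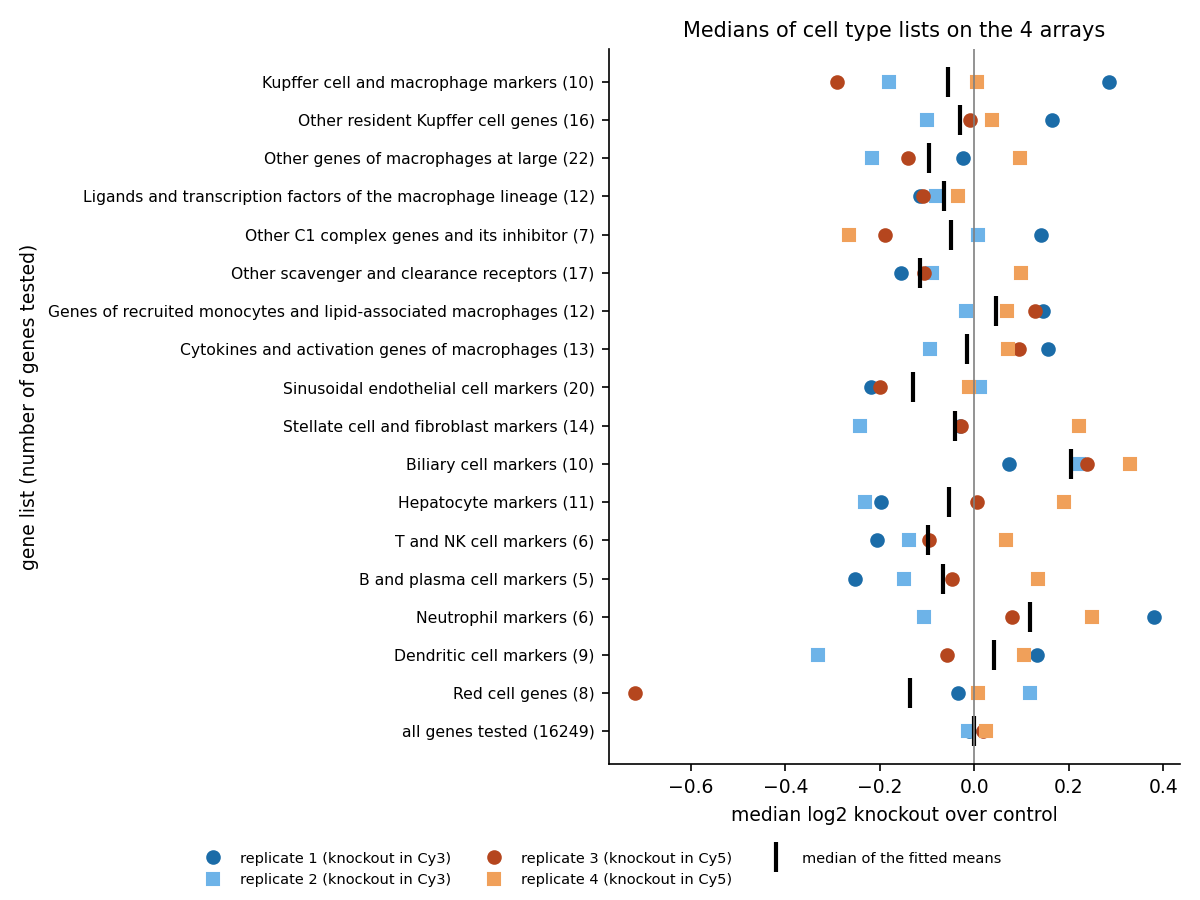
Median log2 ratio of knockout over control of each gene list on each array (coloured points) and of the fitted means (black bars), with the number of genes tested in brackets; the acinar list is left out because its medians reach 4.21. The Kupffer cell and macrophage markers span -0.29 to 0.29 over the arrays around a median of -0.06.

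The 5 genes whose 4 ratios came closest to the median profile of the markers, by root mean square distance over the arrays, were Dpt at 0.06, P2rx4 at 0.07, Tmem150a at 0.08, a transcript listed only by an Ensembl identifier at 0.08 and H2-Q6 at 0.08. In all, 26 genes lay within 0.1. With 4 arrays this is a description of likeness alone.

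The promoters of 3 markers with the shared profile, Clec4f, Cd5l and C1qb, are shown beside that of Cd68, which did not share it. Each is the 250 bases before the start of the gene in RefSeq on GRCm38.p6, 5′ to 3′ on the strand of the gene, with matches to GAGGAA, the core bound by the macrophage factor PU.1, or to its reverse complement TTCCTC in capitals. The windows are chr6:83656117-83656366 on the minus strand for Clec4f, chr3:87357631-87357880 on the plus strand for Cd5l, chr4:136886201-136886450 on the minus strand for C1qb and chr11:69666171-69666420 on the minus strand for Cd68.
Clec4f promoter: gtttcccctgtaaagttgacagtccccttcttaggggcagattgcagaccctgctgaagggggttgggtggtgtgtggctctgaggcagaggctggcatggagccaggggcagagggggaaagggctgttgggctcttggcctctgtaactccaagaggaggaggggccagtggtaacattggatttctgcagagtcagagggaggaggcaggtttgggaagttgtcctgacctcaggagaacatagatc
Cd5l promoter: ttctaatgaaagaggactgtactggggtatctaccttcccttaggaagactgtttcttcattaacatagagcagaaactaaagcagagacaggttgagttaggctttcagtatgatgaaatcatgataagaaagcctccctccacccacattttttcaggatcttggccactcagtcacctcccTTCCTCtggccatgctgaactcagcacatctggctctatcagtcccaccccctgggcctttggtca
C1qb promoter: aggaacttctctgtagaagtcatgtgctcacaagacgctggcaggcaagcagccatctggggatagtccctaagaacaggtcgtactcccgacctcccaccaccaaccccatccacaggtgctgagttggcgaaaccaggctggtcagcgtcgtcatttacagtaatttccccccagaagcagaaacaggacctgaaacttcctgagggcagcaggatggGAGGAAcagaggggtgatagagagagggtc
Cd68 promoter: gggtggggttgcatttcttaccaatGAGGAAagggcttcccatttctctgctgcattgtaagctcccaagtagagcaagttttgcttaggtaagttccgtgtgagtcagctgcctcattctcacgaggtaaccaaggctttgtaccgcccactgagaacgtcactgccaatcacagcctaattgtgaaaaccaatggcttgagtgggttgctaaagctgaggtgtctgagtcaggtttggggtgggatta

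Promoters of 7 of the 10 markers were scanned, and those of Emr1, Csf1r and C1qa were left out. The counts of motifs were taken over windows that also hold the first 50 bases of the gene. GAGGAA on either strand was in 5 of the 7, namely Marco, Cd5l, Vsig4, Cd68 and C1qb, against 28.3% of 32851 mouse promoters of the same length. TGCTGAC, a core recognised by MAF factors, was in 1 of the 7, Timd4, against 4.7% of promoters. TCACGTGA, a site of MITF and TFE factors, was in none of the 7, against 1.0%. Clec4f, with the shared profile, had no match to any of the 3 motifs in its window, while Cd68, without it, had a match to GAGGAA. No base was shared between matches to different motifs, since no window held more than 1 kind. A match describes the letters alone.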

How the data were processed

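Per the file headers, Agilent Feature Extraction 10.7.3.1 read the arrays; the deposited files give mean and background intensity per spot and dye, processed intensity, and a log10 ratio of Cy5 over Cy3, which was not used. The authors' deposited value table holds log2 ratios that matched processed knockout over control within 5e-06 on every array. Per the labels' protocols, RNA was amplified and labelled by in vitro transcription.

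Here mean signals were corrected with normexp (offset 50; parameters fitted on spots without a non-uniform background mark, because a fit on every spot gave a background mean of -273 in Cy3 on replicate 1 against 4.07 to 5.76 without such spots) and normalised by loess within arrays, with limma 3.58.1 in R 4.3.3. Control and outlier spots were left out, and replicate spots averaged per probe. For the levels by mouse and the separate-channel fit, mean intensities were also quantile-normalised between arrays. Testing required a signal well above background in 3 or more mice of 1 genotype, and the brightest tested probe stands for a gene. The limma fit had a dye intercept and a knockout effect signed by dye, with Benjamini-Hochberg adjustment over 16249 genes at 0.05, and was tested on simulated data. The number of arrays limits the precision. All arrays were on 1 slide with 1 scan, so neither was a batch. Of the probes 27234 matched a RefSeq accession for current symbols, and the others kept the symbol of the files.

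The members, the gene lists and the rule for named genes were chosen with earlier results of these data known. The rule names the 10 markers, Ppp1r8, 21 further genes of macrophages and other cell types, list genes past an adjusted p of 0.05, and the 5 genes nearest in profile. Alternatives changed the background correction, normalisation, dye term, variance prior, filter, probe choice, value source and arrays used.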

Additional observations from a re-analysis of the deposited data

Results flagged for a closer look

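Of 50 sets of 4 ratios looked at, 1 held a sample far from the others. Lyve1, a hyaluronan receptor of sinusoidal and lymphatic endothelium, had a log2 ratio of knockout over control of -0.0017 on replicate 1 against -0.18, -0.17 and -0.17 on replicates 2 to 4, a gap of 0.918 of the whole range, above Dixon's critical value for 4 samples. Chance alone gives a gap above that critical value in about 1 in 20 sets. Its mean was -0.13 with an adjusted p of 0.254 by limma.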

How the results depend on the processing

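None of the 10 markers had an adjusted p under 0.05 by limma under any of the 18 alternatives, and the lowest was 0.137. Their median stayed between -0.17 and 0.04. Of 180 marker values, 168 kept their direction. With median centring Clec4f became 0.0237 and C1qb 0.0264. Without replicates 1 and 2 and with no dye term, where genotype and dye cannot be told apart, Emr1 became 0.0367. Leaving out 1 array at a time gave -0.18 to 0.12 for Clec4f, -0.19 to 0.13 for Marco, -0.22 to 0.0076 for Vsig4, -0.19 to 0.0342 for Csf1r, -0.24 to 0.0708 for C1qa and -0.17 to 0.15 for C1qb, and their signs turned. The cause was not tested. Cd5l, Timd4 and Cd68 kept their signs under all 18, and Cd5l ran from -0.39 to -0.04 with 1 array left out. Of 306 medians of the other lists 8 moved by more than the spread between arrays, such as that of the biliary list to 0.44 with processed signals or the deposited table.

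The number of genes called, 0 in the main setting, was 8 with processed signals, 8 with the deposited value table, 29 with no background correction, 207 with median centring, 10 with no dye term, 475 with a trended robust prior, 2745 with separate channels, 266 with no filter and 36 by probe, and 0 with any 1 array left out. The cause was not tested. Genes at an adjusted p under 0.1 ranged from 0 to 4218 against 910. Dim probes such as the second of Cd68 are limited by signal over background.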
